A study of Mus musculus with 10 samples.

Results

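The 10 genes described here mark the 2-cell-like state of mouse embryonic stem cells: Zscan4c, Zscan4d, Zscan4f, Tcstv1, Tcstv3, Usp17la, Usp17lc, Zfp352, Tmem92 and Duxf3. They were taken by name from the 55401 genes of a deposited expression table, with no filter on level, and all 10 were found, each as 1 row. The study sequenced poly(A) RNA in 10 libraries from E14, an established line of embryonic stem cells from mouse. Untreated wild-type E14 cells gave 4 libraries, in 2 numbered sets of 2, and E14 cells edited with CRISPR/Cas9 to carry ANKRD11 Y347A, a change of 1 amino acid in a large nuclear regulator of transcription, gave 6 libraries, in 3 numbered sets of 2. What a set stands for (a clone, a culture, a repeat preparation) is not stated in the labels, so p-values here measure the spread from set to set, which may be technical. The question is whether the mutation goes with a different level of these transcripts.

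The 2-cell-like state is a rare and passing condition of cultured embryonic stem cells, in which genes of the mouse embryo's first round of genome activation are switched on together. In mouse cells the homeobox factor Dux, encoded by Duxf3, is a main trigger of the state, binding long terminal repeats of the retrovirus MERVL and the regulatory regions of genes such as Zscan4c. The Zscan4 proteins, with a SCAN domain and zinc fingers, are known for their part in telomere lengthening and genome stability. Since only a few cells of a culture are in the state at once, its transcripts are low in RNA from whole cultures, and a bulk value cannot tell fewer such cells from less RNA per cell.

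Most of these genes belong to families of near-identical copies, so the level of a single copy depends on how shared reads were divided. In the annotation GENCODE M21 on mm10, Zscan4c, Zscan4d and Zscan4f lie within 1 cluster on chromosome 7 (chr7:11005745-11010547 on the plus strand, chr7:11161374-11166159 on the minus strand and chr7:11397915-11402318 on the plus strand). Each has 4 exons and a coding sequence of 1518 bases without the stop codon, of which 97.5% of positions carry the same base in all 3, and the longest run without a difference is 233 bases. Zscan4c and Zscan4f share 99.6% of coding bases, and Zscan4d shares 97.7% with either. The stretch with the most differences, 6 in 60 coding bases (bases 1032 to 1091 counted from the start codon), shows how little tells the copies apart, with capitals where the 3 are not all the same.
Zscan4c: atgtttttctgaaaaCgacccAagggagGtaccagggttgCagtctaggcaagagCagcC
Zscan4d: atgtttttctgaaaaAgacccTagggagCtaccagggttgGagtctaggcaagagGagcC
Zscan4f: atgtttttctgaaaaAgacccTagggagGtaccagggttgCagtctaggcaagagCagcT

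The same likeness holds upstream of these genes. The next 3 stretches of 60 bases come from their RefSeq promoters on GRCm38.p6, the assembly that mm10 denotes, and are shown because 8 of the 9 Zscan4 rows had a negative fold change in the mutant (values below). Capitals mark the letters TATAAA, which form the core of a TATA box. They begin at -54, -65 and -31 from the RefSeq start of Zscan4c, Zscan4d and Zscan4f. Whether they act as TATA boxes was not tested. Zscan4c is given from chr7:11005657-11005716 (plus strand), Zscan4d from chr7:11166188-11166247 (minus strand) and Zscan4f from chr7:11397850-11397909 (plus strand).
Zscan4c: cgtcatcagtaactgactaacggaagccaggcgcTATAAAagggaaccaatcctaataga
Zscan4d: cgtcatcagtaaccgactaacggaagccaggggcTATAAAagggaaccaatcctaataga
Zscan4f: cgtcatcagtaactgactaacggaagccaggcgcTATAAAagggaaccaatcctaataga
The letters TATAAA occurred on either strand in 13.6% of 32851 RefSeq promoter windows of 300 bases. They occurred in 4 of the 7 windows of members, those of the 3 Zscan4 genes and of Usp17lc, and not in those of Usp17la, Zfp352 and Duxf3.

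How far a copy can be told apart differed among the members. Of all 50-base windows of its transcript, 4.7% were found in no other gene of the annotation for Zscan4f, 14.5% for Zscan4c and 50.4% for Zscan4d. The share was 55.3% for Usp17lc and 80.7% for Usp17la (both on chromosome 7), which share 93.9% of aligned coding bases, and 74.7% for Tcstv1 and 68.6% for Tcstv3 (both on chromosome 13), which share 94.7%. Duxf3 on chromosome 10, an array of copies, had 44.7% of such windows. Zfp352 on chromosome 4 and Tmem92 on chromosome 11 are close to single-copy, with 92.9% and 96.9%, so theirs are the levels least open to shared reads.

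The summed level of the 10 genes was lower in the mutant. It was 4.90 and 3.77 TPM (a transcript level scaled to transcript length and to the same total in every library) in wild-type set 1, and 3.68 and 5.61 TPM in wild-type set 2. In the mutant it was 1.48 and 1.93 TPM in set 1, 0.88 and 1.52 TPM in set 2, and 2.50 and 3.29 TPM in set 3. All 6 mutant libraries lay below all 4 wild-type libraries, and mutant set 3 was the closest to wild type. Over set means the sum was 4.49 ± 0.219 TPM in wild type (SD, n = 2 sets) and 1.93 ± 0.870 TPM in the mutant (SD, n = 3 sets), 2.32-fold higher in wild type. No p is given for the sum, since the genes were grouped with results of these data known. The 3 Zscan4 genes made up 71.6% to 90.1% of the sum in single libraries. The 7 others alone summed to 1.17 ± 0.0247 TPM in wild type and 0.313 ± 0.162 TPM in the mutant, 3.73-fold higher in wild type.

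**Figure D1:**
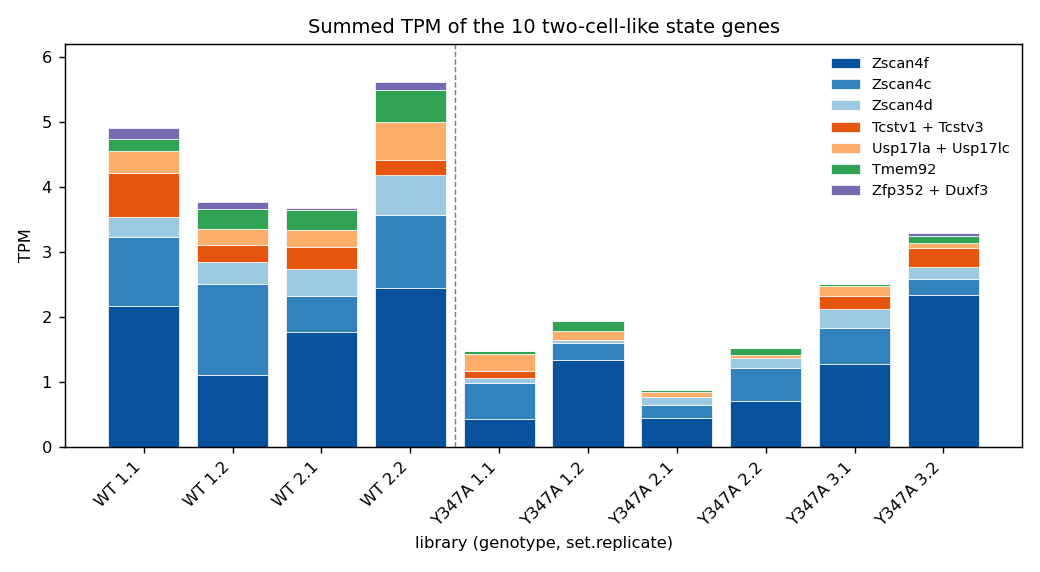
Summed TPM of the 10 genes in each library, stacked by gene; WT is wild type, Y347A the ANKRD11 mutant, and the numbers give set and replicate. The wild-type libraries stand between 3.68 and 5.61 TPM and the mutant libraries between 0.88 and 3.29 TPM, with Zscan4f and Zscan4c as the largest parts of the stacks.

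No single member passed the test across all genes. Each gene was tested on log2(TPM + 1) of set means with limma, 2 wild-type against 3 mutant sets, with Benjamini-Hochberg adjustment over the 26268 genes above 0 TPM in at least 1 library and a threshold of 0.05. By that rule 3.08% of the tested genes were called, 0.952% higher and 2.13% lower in the mutant (250 and 559 genes, or 348 and 463 after quantile normalization), but 0 of the 10 members. At an unadjusted limma p under 0.05, 6 of the 10 were lower and 0 higher, where 14.1% of all tested genes were lower. The fitted fold change was negative for 9 of the 10, against 53.5% of all tested genes. Its median was -0.24 on the log2(TPM + 1) scale against -0.01 over all tested genes. For 3 members, Zscan4d, Zfp352 and Tmem92, all mutant libraries lay below all wild-type libraries, as they did for 11.3% of the tested genes. The scale understates changes of low genes: of the 100 member values, 10 reached 1 TPM (7 of 40 in wild type, 3 of 60 in the mutant) and 28 were 0 (6 of 40 and 22 of 60).

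**Figure D2:**
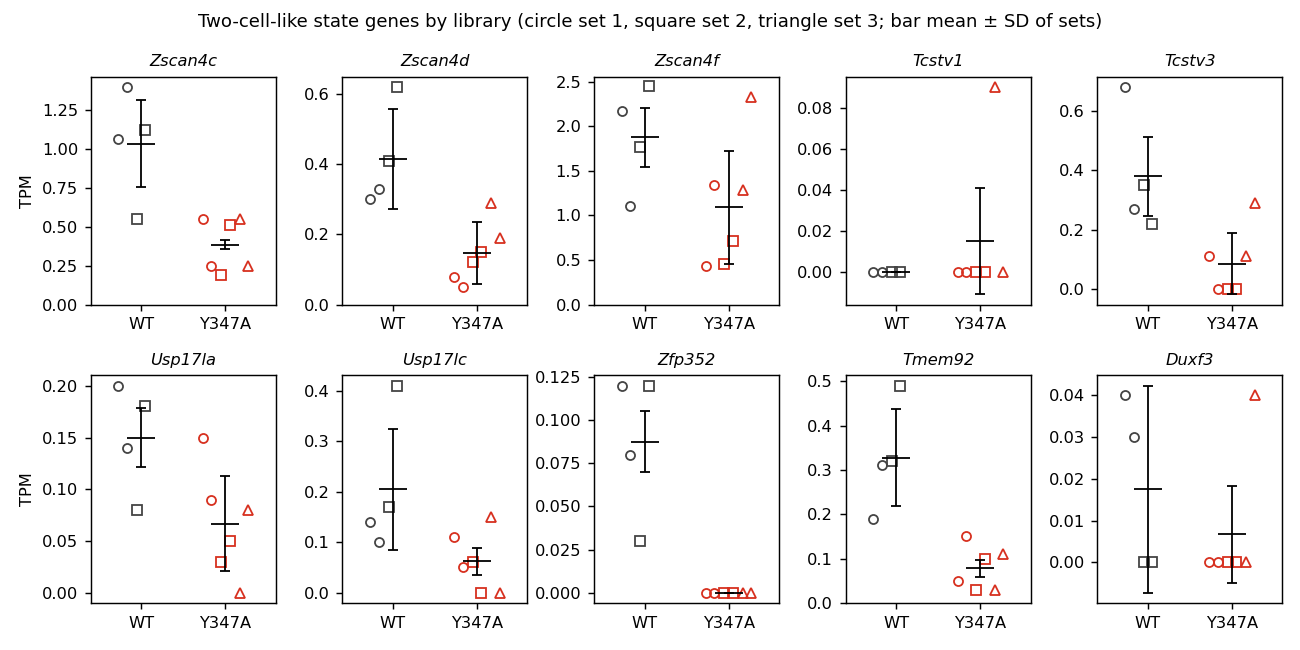
TPM of each gene in each library (circles, squares and triangles for sets 1, 2 and 3), with the mean and SD of set means as bars; each panel has its own axis. Zscan4d, Zfp352 and Tmem92 show no overlap between genotypes, while Zscan4f in mutant set 3 reached 2.33 TPM, within the wild-type range of 1.11 to 2.45 TPM.

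Within wild type the order of levels was Zscan4f, Zscan4c, Zscan4d, Tcstv3, Tmem92, Usp17lc, Usp17la, Zfp352, Duxf3 and Tcstv1. Zscan4f (1.88 ± 0.332 TPM, SD, n = 2 sets) stood above Zscan4c (1.03 ± 0.279 TPM) by more than the spread of sets. In library 2 of set 1 the order was reversed, at 1.11 TPM for Zscan4f and 1.40 TPM for Zscan4c. The order of these near-identical copies also depends on how shared reads were divided. Zscan4d (0.415 ± 0.141 TPM), Tcstv3 (0.380 ± 0.134 TPM) and Tmem92 (0.328 ± 0.110 TPM) did not differ beyond the spread of their sets. Usp17lc (0.205 ± 0.120 TPM) and Usp17la (0.150 ± 0.0283 TPM) overlapped as well.

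Zscan4c is a copy after which some reporter lines of the state are named. Its level was 1.06 and 1.40 TPM in wild-type set 1 and 0.55 and 1.12 TPM in set 2. In the mutant it was 0.55 and 0.25 TPM in set 1, 0.19 and 0.51 TPM in set 2, and 0.55 and 0.25 TPM in set 3. The genotypes met only at 0.55 TPM, the value of the lowest wild-type and the highest mutant libraries. Mean levels were 1.03 ± 0.279 and 0.383 ± 0.0289 TPM, 2.69-fold higher in wild type, and the log2 fold change was -0.55 ± 0.11 (SE; limma adjusted p = 0.070). That p ranged from 0.0085 to 0.240 over 25 alternatives. It lay below the threshold in 6 of them, 5 with both wild-type sets. When only genes averaging 0.1 TPM or more were tested, it was 0.044. The fits with the set ignored (0.015) or as a random block (0.045) took single libraries rather than sets as the unit. The fit on all rows (0.0085) had unreliable moderation. Another left out library 1 of wild-type set 2 (0.047), the lowest wild-type library. The sixth left out wild-type set 2, so the mutant sets alone gave Zscan4c its spread, and it is no support for a difference.

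Zscan4f, the most abundant member, also had the largest SD among mutant sets. In wild type it stood at 2.17 and 1.11 TPM in set 1 and at 1.77 and 2.45 TPM in set 2. Mutant values were 0.43 and 1.34 TPM in set 1, 0.45 and 0.71 TPM in set 2, and 1.28 and 2.33 TPM in set 3. The ranges overlapped, with mutant set 3 among the wild-type libraries and both libraries of mutant set 2 below them all. Its log2 fold change was -0.50 ± 0.28 (limma adjusted p = 0.375), and 0 of 26 alternatives brought it below the threshold (adjusted p from 0.054 to 0.723).

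Zscan4d was at 0.30, 0.33, 0.41 and 0.62 TPM in the wild-type libraries. In the mutant it was at 0.08 and 0.05 TPM in set 1, 0.12 and 0.15 TPM in set 2, and 0.29 and 0.19 TPM in set 3. The genotypes did not overlap, though the highest mutant library lay just under the lowest wild-type library. On the log2 scale the difference was -0.30 ± 0.09 (limma adjusted p = 0.146, from 0.016 to 0.451 over 25 alternatives, 3 of them below the threshold). All 3 took single libraries rather than sets as the unit, and no fit on set means passed.

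The table holds 6 other Zscan4 rows, Zscan4a, Zscan4b and Zscan4e and 3 pseudogenes. Levels were summed over all 9 Zscan4 rows, so that reads divided among these rows stay together. Gm17737 and Gm45551 also share 50-base windows with the Zscan4 members and are not in this sum. The sum was 7.08 and 5.39 TPM in wild-type set 1 and 6.22 and 8.05 TPM in set 2. It was 2.05 and 2.82 TPM in mutant set 1, 1.80 and 2.53 TPM in set 2, and 3.78 and 4.16 TPM in set 3. The genotypes did not overlap, with means of 6.68 ± 0.636 and 2.86 ± 0.974 TPM, 2.34-fold higher in wild type. The 6 rows that are not members carried 3.36 ± 0.442 TPM of this in wild type and 1.24 ± 0.250 TPM in the mutant. Of these, Zscan4e had a log2 fold change of -0.67 ± 0.16, Zscan4a of -0.47 ± 0.10, Zscan4-ps2 of -0.41 ± 0.08, Zscan4-ps3 of -0.28 ± 0.05 and Zscan4b of -0.20 ± 0.12. Zscan4-ps1 was the exception at 0.01 ± 0.05, with both signs among its alternatives. None of these 6 passed the adjusted threshold in limma, whereas 4 were lower at an unadjusted p under 0.05 (0.0024 to 0.0076), where 14.1% of all tested genes were. All 6 share 50-base windows with the members, so the signs and p-values of the Zscan4 rows are not separate results.

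Tcstv3, one of a family of small proteins named for 2-cell-stage transcripts, was at 0.68 and 0.27 TPM in wild-type set 1 and 0.35 and 0.22 TPM in set 2. In the mutant it was listed at 0 in 3 libraries, at 0.11 TPM in 2 and at 0.29 TPM in 1, a library of set 3 that lay above the lowest wild-type values. The log2 fold change was -0.34 ± 0.10 (limma adjusted p = 0.128). Its relative Tcstv1 was listed at 0 in 9 libraries and at 0.09 TPM in 1 library of mutant set 3. A level that low in 1 library gives no comparison between genotypes.

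The deubiquitinases Usp17la and Usp17lc, first known as DUB enzymes induced by cytokines, were low throughout. Usp17la was at 0.20, 0.14, 0.08 and 0.18 TPM in wild type, and at 0.15, 0.09, 0.03, 0.05, 0 and 0.08 TPM in mutant sets 1 to 3. Usp17lc was at 0.14, 0.10, 0.17 and 0.41 TPM in wild type, and at 0.11, 0.05, 0.06, 0, 0.15 and 0 TPM in the mutant. Both overlapped between genotypes. Their log2 fold changes were -0.11 ± 0.05 and -0.18 ± 0.07, with limma adjusted p of 0.246 and 0.203. Of the 4 other Usp17l rows, 1 pseudogene was at 0 throughout, and Usp17lb and Usp17le had fold changes of -0.05 ± 0.11 and -0.11 ± 0.10 whose sign turned without some libraries. All 6 Usp17l rows together came to 0.875 ± 0.134 TPM in wild type and 0.452 ± 0.10 TPM in the mutant. In single libraries that sum overlapped, from 0.59 to 1.15 TPM against 0.27 to 0.64 TPM.

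Tmem92, which encodes a membrane protein, was at 0.19, 0.31, 0.32 and 0.49 TPM in the wild-type libraries. It was at 0.05 and 0.15 TPM in mutant set 1, 0.03 and 0.10 TPM in set 2, and 0.03 and 0.11 TPM in set 3, with no overlap. Means were 0.328 ± 0.110 and 0.0783 ± 0.0189 TPM, 4.18-fold higher in wild type. Tmem92 had a log2 fold change of -0.30 ± 0.06 (limma adjusted p = 0.067). The p ranged from 0.0056 to 0.267 and lay below the threshold in 4 of 25 alternatives, 3 of them with both wild-type sets. Of these 3, the fits with the set ignored (0.0056) or as a random block (0.016) took single libraries as the unit. The third left out library 1 of wild-type set 1 (0.047), the lowest wild-type library. No fit on set means of all libraries passed. The remaining alternative left out wild-type set 1, where the narrow mutant sets alone gave the spread. Zfp352, a zinc finger gene first described in the 2-cell embryo, was at 0.12, 0.08, 0.03 and 0.12 TPM in wild type and listed at 0 in all 6 mutant libraries. It had the smallest p of the members (log2 fold change -0.12 ± 0.02, limma adjusted p = 0.058). The p lay below the threshold in 7 of 24 alternatives, 5 of them with both wild-type sets, such as a pseudocount of 0.1 (0.044). Those 5 include the fits with the set ignored (0.0056) or as a random block (0.021), which took single libraries as the unit. They also include the fit without library 1 of wild-type set 2 (0.048), the lowest wild-type library. The other 2 of the 7 left out a wild-type set. With all mutant libraries at 0 these 2 fits had no spread of their own, so their p rests on the variance prior and is not read. In the fits of Zfp352 on set means, apart from quantile normalization, the mutant sets add no spread. The lowest value above 0 among all members was 0.03 TPM, so the wild-type levels of Zfp352 lie close to what the table can record.

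Duxf3, the trigger at the head of the group, was nearly absent. It was listed at 0.04 and 0.03 TPM in wild-type set 1, at 0 in set 2, at 0.04 TPM in 1 library of mutant set 3 and at 0 in the 5 other mutant libraries. The log2 fold change was -0.02 ± 0.02 (limma adjusted p = 0.752) and turned positive without wild-type set 1 (0.0094), so no direction can be given.

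Sets of the same genotype were compared with each other as well. In a limma fit on single libraries with the 5 sets as groups, 0 of the 10 differed between mutant sets (F test) and 0 between wild-type sets at an adjusted p under 0.05, where 6.14% and 0.944% of all tested genes did. At an unadjusted limma p under 0.05 the counts were 0 of 10 between mutant sets and 1 of 10 between wild-type sets, Zscan4d (0.033). Zscan4d also had the smallest unadjusted p between mutant sets, 0.064. A p above the threshold does not show that the sets were alike, and the member sum averaged 2.90 TPM in mutant set 3 against 1.20 TPM in set 2.

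Other transcripts of the state were compared as a list of 36 genes. Of these, 31 were above 0 TPM in some library and tested, and 4 reached a mean of 1 TPM. Only Obox6 passed (limma, 1 lower and 0 higher), where 2.13% of all tested genes were called lower and 0.952% higher, so the count is near the background. Of the 31 fold changes 25 were negative, against 53.5% of all tested genes, with a median of -0.09 against -0.01. Obox6, a homeobox gene of oocytes and early embryos, was at 5.18 and 6.15 TPM in wild-type set 1 and 5.05 and 5.56 TPM in set 2. It stood at 1.86 and 1.78 TPM in mutant set 1, 1.53 and 1.69 TPM in set 2, and 1.89 and 2.03 TPM in set 3. The genotypes stood far apart, with means of 5.48 ± 0.255 and 1.80 ± 0.176 TPM, and Obox6 fell by 1.21 ± 0.15 on the log2 scale (adjusted p = 0.037). Leaving out any 1 set ended that call (adjusted p between 0.089 and 0.148), as did leaving out library 1 of mutant set 1 (0.053).

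Among predicted genes of this list, 3 that were picked once their values were known also had all mutant libraries below all wild-type libraries. With Obox6 they made 4 of the 31 tested, where 11.3% of all tested genes did so, so this count is near the background. Gm5662 was at 1.58 ± 0.665 and 0.443 ± 0.210 TPM, Gm8300 at 0.755 ± 0.0283 and 0.257 ± 0.158 TPM, and Gm2016 at 1.43 ± 0.170 and 0.862 ± 0.176 TPM, with limma adjusted p of 0.107, 0.092 and 0.191. Higher in the mutant on average, with overlap, was Ddit4l, also picked afterwards, with a log2 fold change of 0.88 ± 0.22 (limma adjusted p = 0.10). Summed over the 36 genes, levels ran from 15.7 to 21.4 TPM in wild-type and from 10.2 to 12.3 TPM in mutant libraries. Obox6 alone held 5.48 of a mean sum of 18.7 TPM in wild type and 1.80 of 11.3 TPM in the mutant. Without Obox6 the libraries of the genotypes overlapped in this sum. Transcripts of this list share 50-base windows with Tcstv1 or Tcstv3 (Gm20767, AF067061 and B020031M17Rik), so they are not independent of the members.

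**Figure D3:**
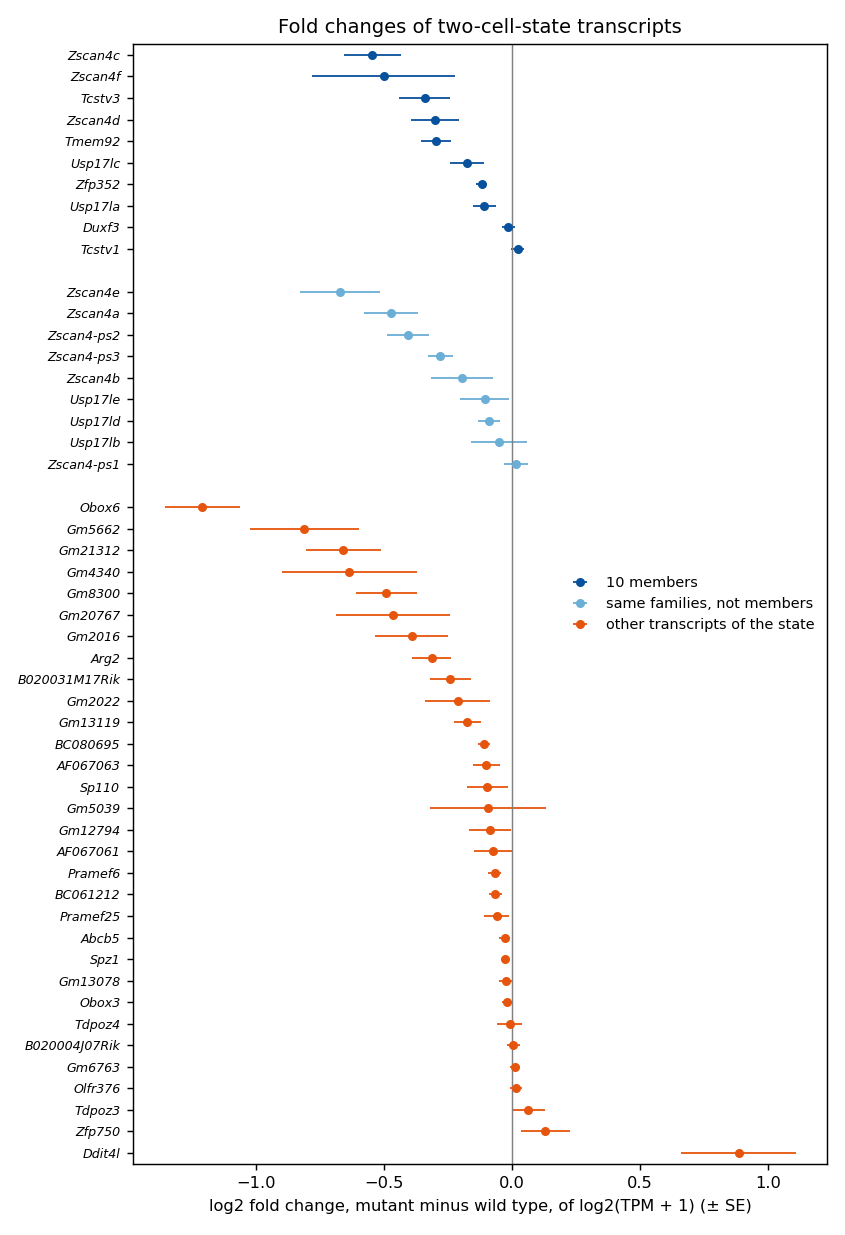
Log2 fold changes, mutant minus wild type, with SE from limma on set means, for the 10 members, the other rows of their families and the tested transcripts of the 36-gene list. Most points lie left of 0; Obox6 lies farthest left at -1.21, and Ddit4l farthest right at 0.88.

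Known regulators of the state were well expressed, unlike its transcripts. Of 31 genes, all above a mean of 1 TPM, 3 fell and 0 rose (limma adjusted p under 0.05), against 2.13% and 0.952% of all tested genes. Of their fold changes 25 were negative, with a median of -0.22. When only genes averaging 1 TPM or more were tested, 8 fell and 1 rose, where 10.5% of those genes fell and 6.97% rose. After median-of-ratios rescaling 2 fell and 1, Pias4, rose, where 1.73% and 1.18% of all tested genes did. For 15 of the 31 all mutant libraries lay below all wild-type libraries (11.3% of tested genes), and for 1 they lay above (6.87%). Those shares cover all tested genes, low ones included, and were not taken for genes averaging 1 TPM or more. As all 31 regulators are above that mean, the shares are no matched background. Dppa2, a chromatin factor that with its partner Dppa4 activates Dux, was between 46.2 and 50.5 TPM in wild-type and between 25.6 and 30.3 TPM in mutant libraries. It fell by 0.77 ± 0.08 on the log2 scale (adjusted p = 0.032), from 48.3 ± 1.27 to 27.8 ± 2.07 TPM. Dppa4 was at 71.6 ± 1.33 and 53.3 ± 4.90 TPM, with no overlap of libraries and an adjusted p of 0.073. Trp53, which encodes p53, an activator of Dux after DNA damage, was at 182 ± 12.1 and 129 ± 16.3 TPM, again with no overlap (adjusted p = 0.087). Nelfa, described as a maternal activator of the state, was at 28.3 ± 0.813 and 28.9 ± 1.90 TPM.

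Repressors of the state were not higher in the mutant at the adjusted threshold, apart from Pias4 in some alternatives, and Pcgf6 and Sumo2 were lower. Pcgf6, a subunit of the Polycomb complex PRC1.6, fell from 64.2 ± 1.38 to 44.9 ± 2.13 TPM (log2 fold change -0.51 ± 0.06, limma adjusted p = 0.035). Sumo2, a small modifier whose attachment to chromatin proteins holds Dux silent, fell from 743 ± 23.5 to 562 ± 21.6 TPM (-0.40 ± 0.06, adjusted p = 0.044). Lin28a, which with nucleolin represses Dux, was at 18.4 ± 2.78 and 10.4 ± 1.87 TPM (adjusted p = 0.086). The chromatin assembly subunits Chaf1a (56.4 ± 0.375 and 43.9 ± 5.35 TPM) and Chaf1b (80.3 ± 0.933 and 76.3 ± 5.39 TPM) had adjusted p of 0.145 and 0.602, and Smchd1 (38.5 ± 2.06 and 37.1 ± 5.52 TPM) 0.825. The 1 regulator with all mutant libraries above all wild-type libraries was Pias4, a SUMO ligase picked once its values were known (37.2 ± 0.689 and 48.5 ± 3.79 TPM, adjusted p = 0.073). Leaving out any 1 set ended the calls of Dppa2, Pcgf6 and Sumo2 (adjusted p between 0.089 and 0.153). Pcgf6 also lost it without library 1 of mutant set 1 (0.0583) or library 1 of mutant set 3 (0.0580), and Sumo2 without any 1 library (0.050 to 0.058) and under median-of-ratios rescaling (0.062).

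**Figure D4:**
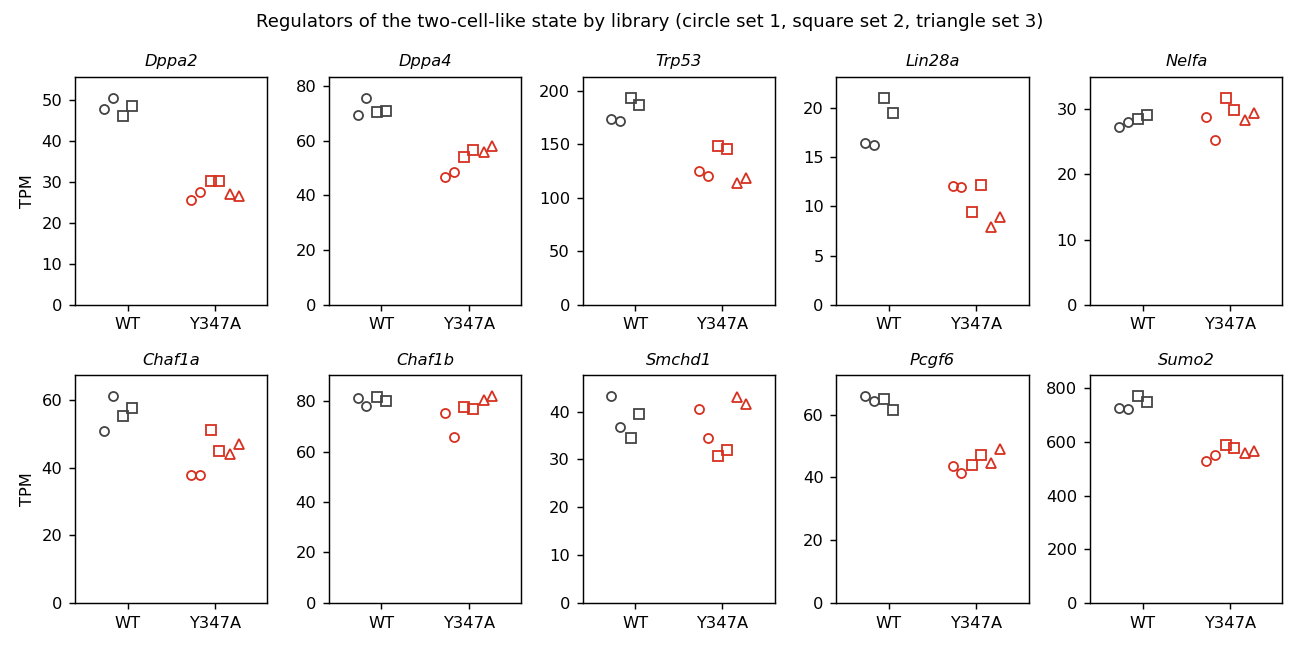
TPM of 10 regulators of the 2-cell-like state in each library (circles, squares and triangles for sets 1, 2 and 3; axes start at 0). Dppa2, Dppa4, Trp53, Lin28a, Pcgf6 and Sumo2 show no overlap between wild type and mutant, while Nelfa, Chaf1b and Smchd1 overlap.

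The genes whose profile over the 10 libraries came closest to the summed member level lay outside the lists above. By Pearson correlation of log2(TPM + 1), among 14665 genes reaching 1 TPM outside the families, the first were Ss18 (r = 0.97), a subunit of the BAF chromatin remodeller, Snx22, Lurap1l and Rcn2 (each 0.96), and Spp1 (0.96), the secreted protein osteopontin. Pecr, Timm8a2, Chpt1 and Prim1 (each 0.95) and Fsbp (0.94) followed. The libraries share 5 sets and 2 genotypes, so these values describe a shared order of libraries. For Ss18, mutant set 3 was the closest to wild type, at 73.7 and 77.3 TPM against 78.9 to 84.0 TPM in wild type. The other mutant libraries stood at 65.0 to 71.1 TPM. Ss18 was picked for its likeness to the member sum, so this shared order is no separate observation.

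The libraries bore the marks of embryonic stem cells. All 8 stem cell markers were expressed, summing to between 9698 and 11555 TPM per library. In limma 1 of them, Nanog, was called lower in the mutant, as were 2.13% of all tested genes. For 3 of the 8, Esrrb, Klf4 and Tdgf1, all mutant libraries lay above all wild-type libraries (6.87% of tested genes). None of these 3 was called (limma adjusted p = 0.077, 0.107 and 0.067). For 3, Nanog, Pou5f1 and Zfp42, all mutant libraries lay below (11.3% of tested genes). These shares include low genes and were not taken for well-expressed genes alone. Fibroblast feeder markers (5 of 6 above 0 in some library, Postn at 0) summed to 1.97 to 4.48 TPM in wild-type and 1.27 to 2.17 TPM in mutant libraries, mostly Thy1. Primitive endoderm markers (5 of 5 above 0) summed to 0.37 to 1.32 and 0.57 to 1.54 TPM, and trophoblast markers (5 of 5 above 0, mostly Tfap2c) to 14.6 to 21.4 and 19.7 to 29.6 TPM. Within the trophoblast list 3 fold changes were positive and 2 negative, with 0 called higher and 1 lower, against 0.952% and 2.13% of all tested genes. The 1 called lower was Gata3, at 0.865 ± 0.0495 and 0.0900 ± 0.0654 TPM (limma adjusted p = 0.028), with no overlap. The part of these markers in the member values was not tested. Ankrd11 itself was at 62.4 ± 4.54 and 59.8 ± 5.65 TPM (limma adjusted p = 0.747), which does not check the labels, since the mutation changes 1 amino acid. Each library had 12473 to 12812 genes at 1 TPM or more, and because TPM keep no read depth, no counting error can be given for the low member values.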

How the data were processed

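Poly(A) RNA-seq libraries were analysed from the authors' deposited table of TPM per gene and library. The submitters' processing notes list RSEM, STAR, DESeq2 and Trim Galore and the build mm10, without roles. The sources used here do not give versions, settings, strand mode or annotation. Columns were matched to samples by name, and 0 per-sample columns were left out. Read depth is unknown, and TPM of 1 gene moves with all others.

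The members and lists were chosen with earlier results of these data known. Values were taken as log2(TPM + 1) and averaged over the 2 libraries of a set. Sets were compared in limma 3.58.1 under R 4.3.3, two-sided, with trended moderation of variances, 3 residual degrees of freedom and Benjamini-Hochberg adjustment over 26268 genes. The fit was tested on simulated data. Replicate numbers of the labels were not taken as pairs. DESeq2 was not run, since TPM are not counts.

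Named were all members, family rows above a mean of 0.1 TPM, up to 6 called genes per list, 8 fixed regulators and the 10 genes most alike, besides those said to be chosen afterwards. Gene places and transcripts came from GENCODE M21, aligned with Biopython 1.88, promoters from RefSeq (7 of 10 members matched). Alternatives covered the pseudocount, filters, scaling, unit of replication, variance moderation and left-out sets or libraries. Figures were drawn with matplotlib 3.10.9.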

Additional observations from a re-analysis of the deposited data

Results flagged for a closer look

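Of 34 genes and sums checked for 1 library far from the rest of its genotype, 4 were picked out. About 1 in 20 groups is picked out by chance, but not where all other values are 0, as for Tcstv1 and Duxf3. There any single value above 0 is picked out. Tcstv1 was at 0.09 TPM in library 1 of mutant set 3 and at 0 in the other mutant libraries. Duxf3 was at 0.04 TPM in library 2 of mutant set 3 and at 0 in the other mutant libraries. Zscan4e was at 0.60 TPM in library 2 of mutant set 3, with the other mutant libraries between 0.09 and 0.26 TPM. Zscan4-ps1 was at 0.19 TPM in library 2 of wild-type set 1, with the other wild-type libraries between 0.06 and 0.08 TPM. The first 3 lie in mutant set 3, where the summed level of the members was also highest among mutant sets. For Tcstv1 and Duxf3 this rests on 1 value near the floor each, so no pattern is read from it.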

How the results depend on the processing

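The difference in summed member TPM (mutant minus wild type, -2.56) ran from -3.04 to -2.07 over left-out sets and libraries, was -2.45 after median-of-ratios rescaling, and -4.63 over all 20 rows of the gene families. Zscan4c, Zscan4d, Zscan4f, Tcstv3, Usp17la, Usp17lc, Zfp352 and Tmem92 stayed lower in the mutant under every alternative that could be run for them, whether or not they passed the test.

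Calls depended on the fit. All genes, members, other transcripts and regulators gave 809, 0, 1 and 3 calls in the fit reported. At a mean of at least 1 TPM they gave 2242, 0, 2 and 9 (1 member tested), at 0.1 TPM 2037, 1, 3 and 9, and with all rows 3422, 1, 7 and 10, where most residual variances were 0 and the moderation is unreliable. Over 10 libraries with the set ignored they were 5456, 5, 5 and 16, and with the set as a random block 4291, 4, 5 and 14. With set and rep number as a replicate block they were 2413, 2, 3 and 7 (Zscan4d and Tcstv3), but same-numbered libraries did not deviate together (correlations from -0.06 to 0.03, and none correlated best with its own number), so the labels share only a number. A pseudocount of 0.1 and robust moderation each called 1 member, Zfp352. The fits with the set ignored, a random block or a replicate block took single libraries, not sets, as the unit. Such fits were among the passing alternatives of Zscan4c, Zscan4d, Tcstv3, Zfp352 and Tmem92. Left-out sets and libraries gave 0 to 726, 0 to 2, 0 to 2 and 0 to 2; without a wild-type set, the remaining one is assumed to vary like the mutant sets. Without any 1 mutant set limma called 0 of 26268 genes, with 4909, 6079 and 5207 at an unadjusted p under 0.05. Genes differing between mutant sets were 1614, and 2507 at a mean of at least 1 TPM.

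Fold changes that turned sign in some alternative, none of them called, ran over left-out sets and libraries from -0.040 to 0.0094 for Duxf3, -0.16 to 0.052 for Smchd1, -0.018 to 0.074 for Nelfa, -0.14 to 0.011 for Ankrd11, -0.25 to 0.038 for Usp17le, -0.16 to 0.027 for Usp17lb and -0.027 to 0.056 for Zscan4-ps1. Ankrd11 was also at 0.012 after quantile normalization, and Zscan4-ps1 at -0.019 with the replicate block. The causes were not tested. Since TPM keep no depth, values near 0.03 TPM, the lowest above 0 among the members, carry an unknown counting error.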
